A study of Mus musculus with 13 samples.

Results

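Frizzled proteins are the membrane receptors for WNT ligands. Of the 12880 genes in the deposited table of this mouse limb bud study, 8 are described here: Fzd1, Fzd2, Fzd3, Fzd6, Fzd7, Fzd8, Fzd9 and Fzd10. They were chosen by gene symbol, and the family was taken up because Fzd9 was already known to be lower in the Sox9 mutants, so the Fzd9 differences between mutants and controls are given as a description, with no test. The table lists 10 Frizzled genes in all. The other two, Fzd4 and Fzd5, were not among the 8 and are given briefly.

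RNA-seq was done on 13 libraries of whole embryonic mouse limb buds, each from a separate numbered embryo per the table's header. The groups at E11.5 (embryonic age in days) were 3 controls carrying 1 floxed and 1 null Sox9 allele (Sox9fl/-) and 4 mutants with no intact allele (Sox9-/-, called Sox9null). At E12.5 there were 3 controls with both alleles floxed (Sox9fl/fl) and 3 mutants with the same alleles and the Prx1CreER transgene (Sox9fl/flPrx1CreER, called Sox9cKO). Prx1CreER is an inducible Cre recombinase driven by the Prx1 limb mesenchyme promoter and thus acts in limb mesenchyme. Neither the time of induction nor the deleted exons were given in the sources used here. Mutants at the ages are of different kinds, and the E11.5 controls already lack 1 Sox9 allele. Age and genotype therefore cannot be told apart in a comparison of the ages.

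The values are normalized RPKM, reads scaled by gene length and library depth. Sox9, the targeted transcription factor gene, was at 20.6 to 25.7 RPKM in Sox9null and at 35.8 to 49.3 in the controls of that age. In Sox9cKO it was at 28.7 to 35.1 and in the E12.5 controls at 35.2 to 37.5. Values over a whole gene can hold reads of undeleted exons, so they check the labels only in part. All 9 limb mesenchyme markers were listed. Their sum was 452 to 475 RPKM in the E11.5 controls and 417 to 481 in Sox9null. It was 404 to 410 in the E12.5 controls, below the E11.5 controls without overlap, and 408 to 429 in Sox9cKO. The E11.5 libraries fell into sets, one of 4 libraries (Sox9null 3 and 4 with controls 1 and 3) and one of 3 libraries (Sox9null 1 and 2 with control 2). Pearson r of log2 values was 0.979 to 0.989 within these sets and 0.938 to 0.966 between them. By the Y-linked genes, control 1 and Sox9null 3 at E11.5, all 3 E12.5 controls and Sox9cKO 3 were male. Relative depth ran from 0.815 to 1.24 between libraries, and the absolute depth is unknown. It was 0.957 to 1.24 in the E11.5 libraries and 0.815 to 0.935 in the E12.5 libraries, so depth cannot be told apart from age. Within E11.5 it was 1.11 to 1.24 in the set of 4 and 0.957 to 1.04 in the set of 3.

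A WNT ligand binds the extracellular cysteine-rich domain of a Frizzled protein. Together with the co-receptors Lrp5 or Lrp6 this leads to Dishevelled recruitment and stabilises beta-catenin, while Frizzled proteins without these co-receptors can signal through planar cell polarity. In the limb bud, WNT ligands made by the surface ectoderm keep the mesenchyme beneath from forming cartilage, and Sox9 is the transcription factor that cartilage formation depends on. The mouse Frizzled proteins fall into 4 groups by sequence: Fzd1, Fzd2 and Fzd7; Fzd5 and Fzd8; Fzd4, Fzd9 and Fzd10; and Fzd3 and Fzd6.

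The genes lie apart in the genome (mm10, the same assembly as GRCm38; GENCODE mouse annotation). Fzd9 (ENSMUSG00000049551) is a single-exon gene on the minus strand of chromosome 5, from 135248938 to 135251230, and its 2293 bases make it the shortest of the 8. Fzd10 (ENSMUSG00000081683) and Fzd1 (ENSMUSG00000044674) are on the same chromosome, at 128600844 to 128604093 and at 4753839 to 4758035. Fzd2 (ENSMUSG00000050288) is on chromosome 11 (102604396 to 102608058), and Fzd7 (ENSMUSG00000041075) is on chromosome 1 (59482424 to 59486955). These 5 genes, and Fzd8, each have 1 exon. Fzd3 (ENSMUSG00000007989) has 8 exon blocks on chromosome 14 (65192449 to 65262463), and Fzd6 (ENSMUSG00000022297) has 9 on chromosome 15 (39006034 to 39038188). The exons of Fzd6 overlap those of Gm26704, a non-coding RNA gene on the other strand, by 152 bases, and reads there cannot be assigned without strand.

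Related receptors can share reads, so the longest identical stretch was found for each of the 28 pairs of transcripts; it was between 12 and 47 bases. For the 7 pairs with Fzd9 it was between 13 and 24 bases. The stretch that Fzd9 shares with Fzd10, its longest with any of the others, and the one that Fzd1 shares with Fzd7 are shown because reads no longer than these could be counted for either gene. Both lie within the coding parts. The read length was not given in the sources used here.
Fzd9 and Fzd10 (chr5:135249604-135249627, minus strand, and chr5:128602608-128602631, plus strand): tttatgaacgcctcaacatggact
Fzd1 and Fzd7 (chr5:4756964-4757010, minus strand, and chr1:59483344-59483390, plus strand): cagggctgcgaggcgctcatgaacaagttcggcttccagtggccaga

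Promoter windows of 250 bases before the RefSeq start were found for 4 of the 8 genes in the RefSeq table (GRCm38.p6): Fzd1, Fzd7, Fzd9 and Fzd10. The Fzd9 window, at chr5:135251048-135251297, was 76.4% G and C, above 97.0% of the 32851 promoter windows, and held 42 CG pairs. Only 67 of its 250 bases lie upstream of the GENCODE gene given above, and the rest is inside that gene. The Fzd10 window had the same G and C content with 37 CG pairs, but it lies inside the GENCODE gene given above, which starts earlier, and so is no upstream sequence by that annotation. The Fzd7 and Fzd1 windows had 65.2% and 51.2% with 17 and 12 CG pairs. The letters ACAAT, the core bound by SOX factors, were searched on both strands, and 27.7% of all windows held them. They were absent from the windows of Fzd1, Fzd7 and Fzd9 and occurred at 1 place in that of Fzd10. The letters CTTTG, the core bound by TCF and LEF factors at the end of WNT signalling, were in 48.6% of all windows, searched in the same way. They occurred at 2 places in the Fzd1 window, at 1 in those of Fzd7 and Fzd10, and at none in that of Fzd9. A match of letters is no evidence of binding. The Fzd9 stretch is shown beside those of Fzd1 and Fzd7, whose levels hardly moved, with CTTTG or its complement CAAAG in capitals. Of the Fzd9 window only the 67 bases upstream of every annotated start are printed.
Fzd9 (chr5:135251231-135251297, minus strand): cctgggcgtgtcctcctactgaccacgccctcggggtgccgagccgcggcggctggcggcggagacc
Fzd1 (chr5:4758217-4758466, minus strand): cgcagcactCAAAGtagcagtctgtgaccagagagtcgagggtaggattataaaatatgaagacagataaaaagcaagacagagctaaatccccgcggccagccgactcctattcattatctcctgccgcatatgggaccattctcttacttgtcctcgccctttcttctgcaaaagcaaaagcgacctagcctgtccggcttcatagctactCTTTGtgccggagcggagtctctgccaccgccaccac
Fzd7 (chr1:59481897-59482146, plus strand): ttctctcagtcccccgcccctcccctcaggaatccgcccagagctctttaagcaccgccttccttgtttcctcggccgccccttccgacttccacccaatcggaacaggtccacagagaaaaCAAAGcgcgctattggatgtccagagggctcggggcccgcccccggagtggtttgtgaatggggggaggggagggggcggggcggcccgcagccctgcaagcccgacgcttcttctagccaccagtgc

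All 8 genes were measured in all 13 libraries, and their order of levels was nearly the same in each group. Fzd2 was the most abundant, with group means between 44.3 and 46.5 RPKM, above every other gene in every library. Fzd1, Fzd7 and Fzd10 followed, with group means between 31.5 and 36.7 RPKM and ranges that mostly overlapped. Fzd1 stood above Fzd7 without overlap in both E12.5 groups, and the ranges of these genes overlapped in both E11.5 groups. Fzd3 came next (25.4 to 26.3 RPKM), then Fzd8 (13.4 to 22.7), Fzd6 (9.47 to 13.5) and Fzd9 (0.921 to 9.70), and the ranges of these neighbours did not overlap in any group. The 8 genes summed to 198 ± 4.02 RPKM (SD, n = 3) in the E11.5 controls and 199 ± 2.37 (SD, n = 4) in Sox9null. The sum was 217 ± 2.23 (SD, n = 3) in the E12.5 controls and 210.0 ± 4.65 (SD, n = 3) in Sox9cKO.

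The genes differed in how far they moved over the 13 libraries. The coefficient of variation (SD over mean) was 3.35% for Fzd1, 4.51% for Fzd2, 4.80% for Fzd10, 5.07% for Fzd7 and 7.51% for Fzd3, against a median of 10.8% over all genes. It was 15.6% for Fzd6 and 24.5% for Fzd8. For Fzd9 it was 85.8%, which 99.5% of the genes of the table were below, and the highest library held 13.8 times the RPKM of the lowest. The coefficient takes in the differences between mutants and controls by which Fzd9 was chosen.

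Fzd9 is a receptor with known roles in bone and in the nervous system. Its RPKM was 2.24, 3.18 and 3.27 in the E11.5 controls and 0.784, 0.910, 0.933 and 1.06 in Sox9null. A day later it was 10.8, 8.38 and 9.92 in the controls and 4.31, 3.39 and 3.24 in Sox9cKO. Each mutant library was below each control library of its age. The groups thus stood in the order E12.5 controls, Sox9cKO, E11.5 controls and Sox9null, with overlap only between Sox9cKO and the E11.5 controls.

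**Figure D1:**
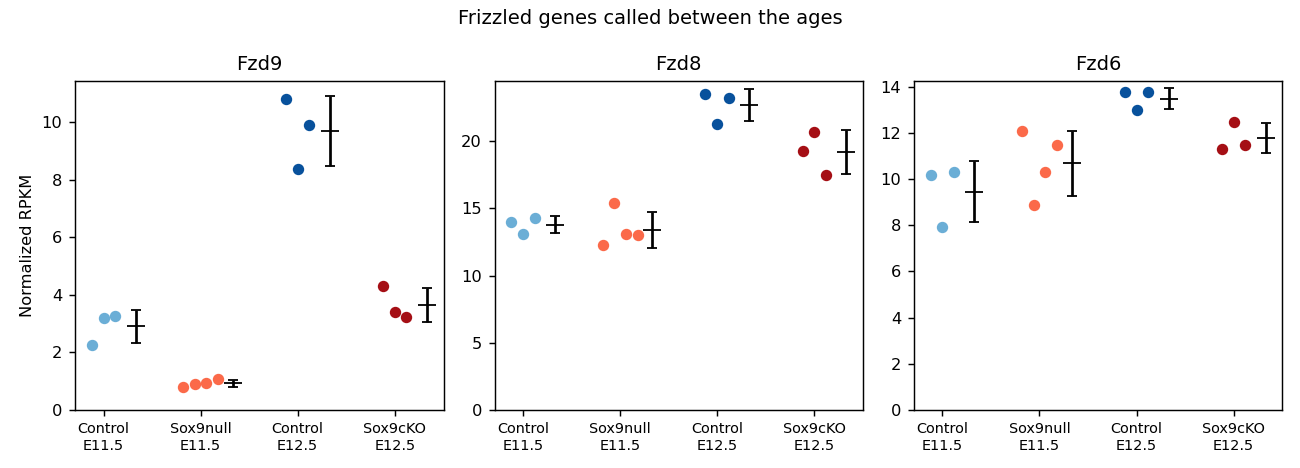
Normalized RPKM (y axes, from 0) of Fzd9, Fzd8 and Fzd6 in each library of the 4 groups (x axes); points are libraries in replicate order, and bars beside them are the mean ± SD. Fzd9 ranged from 0.784 to 1.06 in Sox9null and from 8.38 to 10.8 in the E12.5 controls, and Fzd8 was higher at E12.5 than at E11.5 in every library.

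The group means of Fzd9 were 2.90 ± 0.571 RPKM (SD, n = 3) in the E11.5 controls and 0.921 ± 0.113 (SD, n = 4) in Sox9null, a ratio of 0.318. They were 9.70 ± 1.23 (SD, n = 3) in the E12.5 controls and 3.65 ± 0.580 (SD, n = 3) in Sox9cKO, a ratio of 0.376. On the log2(RPKM + 1) scale used for tests the differences were -1.01 (SE 0.127, 95% confidence interval -1.29 to -0.73) at E11.5 and -1.20 (SE 0.136, -1.50 to -0.91) at E12.5. These intervals are no test of Fzd9, which was chosen by these differences. Adding 1 RPKM shrinks the difference of a gene this low, and with 0.25 added the differences were -1.41 and -1.36. The difference between these mutant effects, E12.5 minus E11.5, was -0.19 (SE 0.186, interval -0.60 to 0.21), and it was 0.06 with 0.25 added, so its direction turns on the pseudocount. At E11.5 the difference was -0.90 among the set of 4 libraries and -1.18 among the set of 3. Among male libraries alone it was -0.75 at E11.5 (1 mutant, 1 control) and -1.33 at E12.5 (1 mutant, 3 controls), and among female libraries at E11.5 it was -1.14 (3 mutants, 2 controls). No female control was measured at E12.5.

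As a share of the summed RPKM of the 8 genes, Fzd9 made up 1.47% ± 0.313 (SD, n = 3) in the E11.5 controls and 0.464% ± 0.0612 (SD, n = 4) in Sox9null. Its share was 4.46% ± 0.552 (SD, n = 3) in the E12.5 controls and 1.74% ± 0.295 (SD, n = 3) in Sox9cKO. Its relative Fzd10, steady across the groups, was 11.2 times as abundant as Fzd9 in the E11.5 controls (mean ratio of the libraries) and 35.1 times in Sox9null. That ratio was 3.50 in the E12.5 controls and 9.44 in Sox9cKO. Scaling between libraries cancels in such ratios and shares.

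None of the other 7 genes passed the test between mutants and controls. Differences were tested with limma over all 12880 genes, with Benjamini-Hochberg adjustment and calls at an adjusted p under 0.05. At E11.5 limma called 0.0543% of all genes, and of the 8 Frizzled genes only Fzd9, which the choice of the family fixed. That call was lost in the fit on E11.5 alone, with the replicate block, and without control 2, control 3, Sox9null 1, Sox9null 2 or Sox9null 3. The other 7 had log2 differences between -0.04 (Fzd8) and 0.16 (Fzd6), none at an unadjusted p under 0.05 (2.82% of all genes had one), and the limma adjusted p was 1 for each. At E12.5 limma called 0.194% of all genes, and of the 8 again only Fzd9, which the choice of the family fixed here too. Of the other 7, 1 had an unadjusted p under 0.05 in limma, namely Fzd8, against 5.41% of all genes. Their log2 differences had a median of 0.03 at E11.5 and 0.01 at E12.5, against 0.01 over all genes in both comparisons.

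Fzd8 (ENSMUSG00000036904, chromosome 18, 9212163 to 9218136), a receptor of the Fzd5 group, was the nearest to a call at E12.5. Its RPKM was 23.5, 21.3 and 23.2 in the E12.5 controls and 19.3, 20.7 and 17.5 in Sox9cKO. Each mutant library was below each control, and the ratio of means was 0.846. The log2 difference of -0.23 (SE 0.083, interval -0.41 to -0.05) did not pass (limma adjusted p = 0.583). At E11.5 Fzd8 had 13.1 to 14.3 RPKM in the controls and 12.3 to 15.4 in Sox9null, and the groups overlapped. Among male E12.5 libraries alone the log2 difference was -0.36 (1 mutant, 3 controls).

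Fzd6, which acts in planar cell polarity, had 13.81, 12.98 and 13.76 RPKM in the E12.5 controls and 11.33, 12.52 and 11.47 in Sox9cKO. These groups did not overlap, but the log2 difference of -0.19 (SE 0.110, interval -0.43 to 0.06) did not pass (limma adjusted p = 1). At E11.5 Fzd6 was at 10.2, 7.95 and 10.3 RPKM in the controls and at 8.90 to 12.1 in Sox9null, with overlap. The difference of the mutant effects was -0.35 for Fzd6 (SE 0.151, interval -0.68 to -0.02, limma adjusted p = 1). For that difference limma called 0.0311% of all genes and 0 of the 8 Frizzled genes, and Fzd6 alone of the 8 had an unadjusted p under 0.05, as 3.05% of all genes did. Groups that do not overlap were common at E12.5, where 20% of all genes had them, against 3 of the 8 Frizzled genes (Fzd6, Fzd8 and Fzd9). At E11.5 the share was 2.47% of all genes, and Fzd9 was the only one of the 8. The choice of the family largely fixed the place of Fzd9 in both counts. Without Fzd9, only Fzd6 and Fzd8 remain at E12.5, and no Frizzled gene remains at E11.5.

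Fzd1, Fzd2 and Fzd7, receptors close in sequence and the most abundant here with Fzd10, stayed within narrow limits. Fzd2 had between 43.3 and 49.5 RPKM, Fzd1 between 33.7 and 37.2, Fzd7 between 30.8 and 35.8 and Fzd10 between 30.3 and 35.5. For Fzd2 the log2 difference of the mutants was 0.00 at both ages, with intervals of -0.11 to 0.12 at E11.5 and -0.12 to 0.13 at E12.5. For Fzd10, the nearest relative of Fzd9 among the 8, it was 0.03 (interval -0.08 to 0.13) and 0.01 (-0.10 to 0.13). For Fzd7, the largest of these at E12.5, it was 0.09 (-0.04 to 0.22). Fzd3, the other receptor of planar cell polarity, had between 22.7 and 29.3 RPKM, and its intervals reached from -0.21 to 0.16 and from -0.17 to 0.23. An unadjusted interval of this width leaves room for differences of its size.

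**Figure D2:**
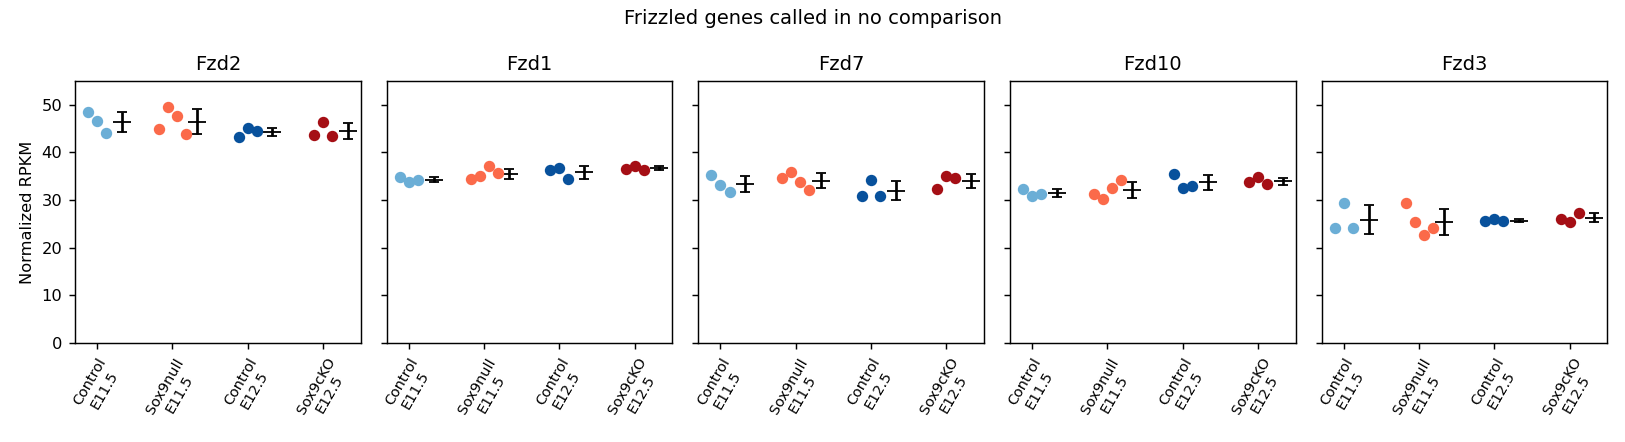
Normalized RPKM (shared y axis, from 0) of Fzd2, Fzd1, Fzd7, Fzd10 and Fzd3 in each library of the 4 groups (x axes); points are libraries in replicate order, and bars beside them are the mean ± SD. Fzd2 lay between 43.3 and 49.5 in all 13 libraries and Fzd3 between 22.7 and 29.3.

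Between the ages, Fzd9, Fzd8 and Fzd6 rose in the controls, of which only Fzd8 and Fzd6 can be set beside the share of all genes. In that comparison limma called 16.5% of all genes higher and 21.7% in either direction. Fzd9 rose by 1.46 on the log2 scale (SE 0.136), a ratio of means of 3.35. The 3 E12.5 controls each exceeded the 3 E11.5 controls. These are the same control libraries that entered the mutant differences by which Fzd9 was chosen, so its change with age is not wholly independent of that choice. Both its E11.5 means were also below the 3 RPKM that the authors asked for, so it is listed only through the E12.5 groups. Being higher at E12.5 was thus a condition of its listing, and its change with age is a description with no test. Fzd8 rose by 0.68 (SE 0.083, limma adjusted p = 0.000603), from 13.8 ± 0.626 to 22.7 ± 1.20 RPKM (SD, n = 3 each). Fzd6 rose by 0.48 (SE 0.110, limma adjusted p = 0.0106), from 9.47 ± 1.32 to 13.5 ± 0.465 RPKM (SD, n = 3 each). Fzd10 had no overlap between the ages, as 45.9% of all genes did, but its difference of 0.09 was not called (limma adjusted p = 0.221).

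In the mutants, Fzd9 and Fzd8 rose from Sox9null to Sox9cKO, of which only Fzd8 can be set beside the share of all genes. In that comparison limma called 14.5% of all genes higher and 19.7% in either direction. For Fzd9 the log2 difference was 1.27 (SE 0.127), with a ratio of means of 3.96, again given with no test because of its listing. For Fzd8 it was 0.48 (SE 0.077, limma adjusted p = 0.00334), from 13.4 ± 1.33 RPKM (SD, n = 4) to 19.2 ± 1.64 (SD, n = 3). Fzd6 had 10.7 ± 1.41 and 11.8 ± 0.650 RPKM and was not called (limma adjusted p = 0.373). The contrast that sets the change with age in mutants against that in controls is the same as the difference of the mutant effects given above, and none of the 8 genes passed it. Without overlap between the ages was Fzd8, as 33.5% of all genes were, and also Fzd9, for which its listing favoured this. The male E11.5 control had 2.24 RPKM of Fzd9, below the 3 male E12.5 controls, and the male mutants had 0.933 at E11.5 and 3.24 at E12.5.

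**Figure D3:**
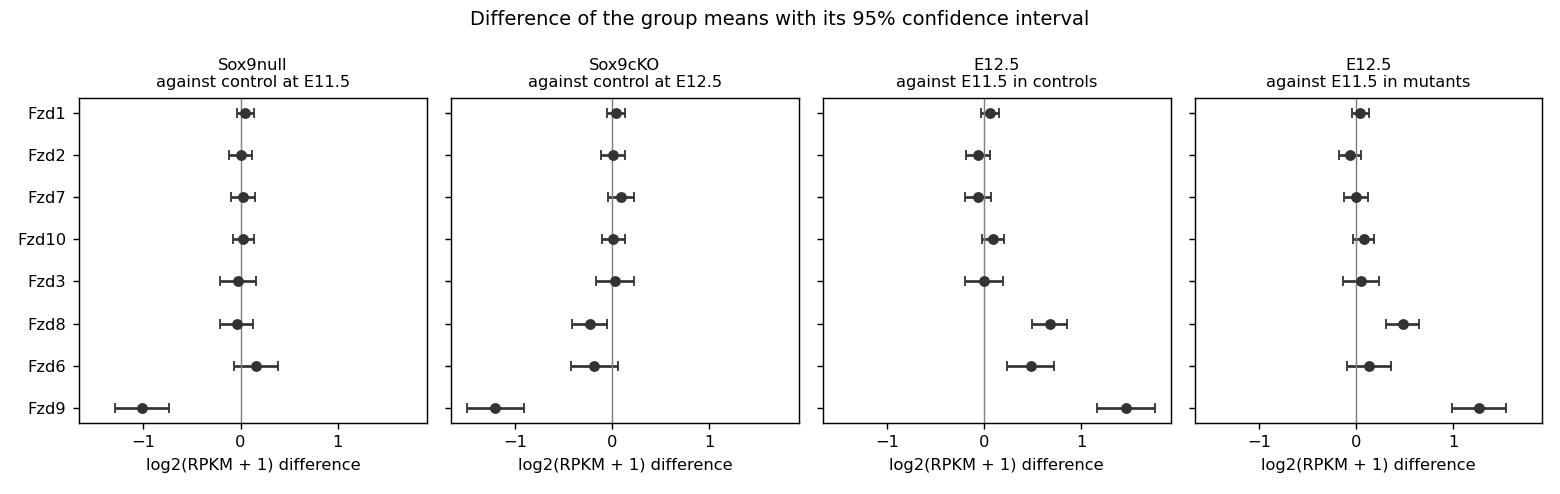
Difference of group means on the log2(RPKM + 1) scale (x axes) for the 8 Frizzled genes (rows) in 4 comparisons (panels); bars are the 95% confidence intervals of limma, not adjusted for the number of genes. Fzd9 lay at -1.01 and -1.20 in the mutant comparisons and at 1.46 and 1.27 between the ages, and the Fzd8 difference between the ages was 0.68 in controls and 0.48 in mutants.

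The authors' deposited table also gives a p for each gene over all 4 groups, adjusted for the false discovery rate. In the authors' deposited table this p was 8.13e-05 for Fzd9, 0.00143 for Fzd8 and 0.0618 for Fzd6. The value for Fzd9 takes in the differences by which it was chosen and listed, so it is no separate evidence. For the other 5 genes the authors' deposited table gave values from 0.159 (Fzd1) to 0.984 (Fzd3).

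Of the other Frizzled genes in the table, Fzd5, the relative of Fzd8, had a lower mean than Fzd9 in every group but Sox9null. Its highest group mean, 3.36 RPKM in the E12.5 controls, is just above the 3 RPKM that the authors asked of a listed gene, and its other group means were below it. Fzd5 had 1.22, 2.75 and 2.25 RPKM in the E11.5 controls and 1.27, 1.58, 1.65 and 1.96 in Sox9null. It had 3.39, 3.34 and 3.36 in the E12.5 controls and 2.71, 2.06 and 2.29 in Sox9cKO. Since Fzd5 is listed only through the E12.5 controls, being higher there was a condition of its listing, and no test of it is given. Its exons overlap those of Gm38058 on the other strand by 1233 bases. Fzd4 lay between 14.3 and 18.0 RPKM and was not called in any of the 5 comparisons.

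Fzd9 was set beside the gene that was targeted. Sox9 had 35.8, 49.3 and 37.1 RPKM in the E11.5 controls and 37.5, 35.2 and 35.9 in the E12.5 controls, while the mean of Fzd9 was 3.35 times as high at the later age. Sox9cKO had 35.1, 28.7 and 32.2 RPKM of Sox9, a mean of 32.0 against 36.2 in the E12.5 controls, and a Fzd9 mean of 3.65 against 9.70. Pearson r between Fzd9 and Sox9 (log2 values) was 0.685 over the 13 libraries, which share their groups, and 0.530 for the deviations from the group means. For Col2a1, the main cartilage collagen gene, these values were 0.844 and 0.263.

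**Figure D4:**
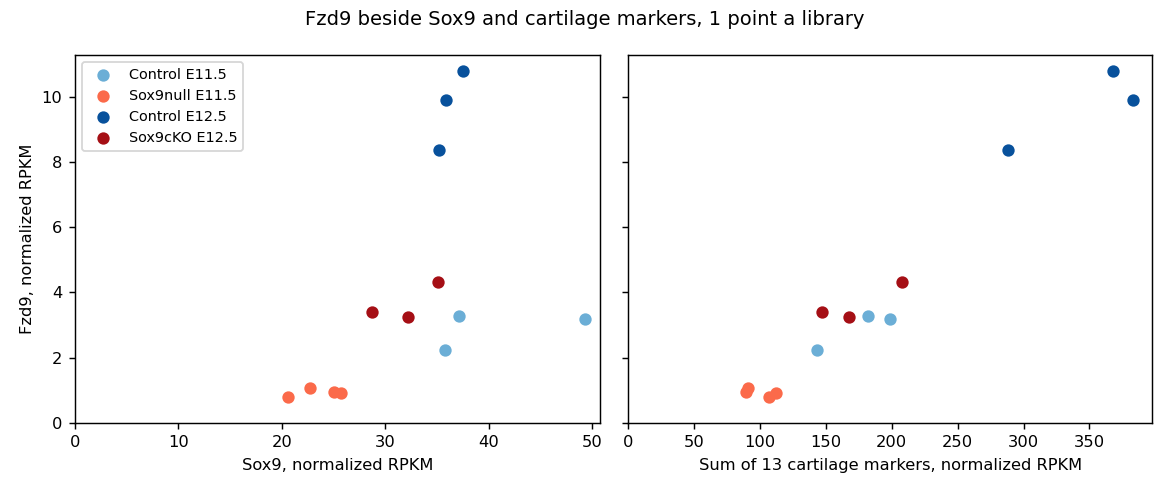
Normalized RPKM of Fzd9 (y axes) against that of Sox9 (left) and against the summed RPKM of 13 cartilage markers (right), 1 point a library, coloured by group; all axes start at 0. The E12.5 controls (Fzd9 8.38 to 10.8) lay at Sox9 levels of 35.2 to 37.5, and their marker sums of 288 to 383 were above those of all other libraries.

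The 10 genes whose profile was most like that of Fzd9, by Pearson r of log2 values over the 13 libraries, had r between 0.973 and 0.986. Predicted genes and other Frizzled genes were left out. They were Enpp2 (autotaxin), Tgfa (a ligand of the EGF receptor), Sfrp2 (a secreted Frizzled-related protein that binds WNT ligands), Gal3st1, Pion, Kank1, Sema3d, Matn4 (a cartilage matrilin), Cthrc1 and Foxc1. Sfrp2 had 46.3, 35.2, 61.6 and 48.0 RPKM on average in the E11.5 controls, Sox9null, E12.5 controls and Sox9cKO. Tgfa had 1.65, 1.04, 4.24 and 2.21, and Matn4 had 4.02, 0.262, 21.4 and 4.57. Each of the 10 had the highest mean in the E12.5 controls and the lowest in Sox9null, an order that choosing them by likeness to Fzd9 largely fixed. With the group means taken out, r with Fzd9 ran from 0.536 (Foxc1) to 0.970 (Pion) among the 10. These deviations entered the r by which the 10 were chosen, so they are no separate evidence. Gal3st1, Pion and Tgfa reached a mean of 3 RPKM only in the E12.5 controls, so being higher there was a condition of their listing. By r over the 13 libraries, with the group means left in, Col2a1 ranked 347 and Sox9 1694 in the table. Among the Frizzled genes r with Fzd9 over the 13 libraries was 0.884 for Fzd5, 0.867 for Fzd8, 0.727 for Fzd4, 0.563 for Fzd6, 0.446 for Fzd10, 0.134 for Fzd1, 0.084 for Fzd3, -0.479 for Fzd2 and -0.551 for Fzd7.

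The rest of the WNT pathway was described from lists of 63 genes, of which 47 were in the table. None of the 47 was called by limma in either mutant comparison or in their difference, and 3 had an unadjusted p under 0.05 in each of these comparisons. Over all genes limma called 0.0543%, 0.194% and 0.0311%, and 2.82%, 5.41% and 3.05% had an unadjusted p under 0.05. The median log2 difference of the 47 was 0.00 at E11.5 and -0.03 at E12.5.

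Of 19 ligand genes, 10 were listed. In Sox9null 8 of the 10 had higher means than in controls on the log2 scale (median 0.13), and in Sox9cKO all 10 had lower ones (median -0.15), with none called. Wnt4 had mean levels of 6.52, 8.65, 10.4 and 7.75 RPKM in the E11.5 controls, Sox9null, E12.5 controls and Sox9cKO (limma adjusted p = 1 at E11.5 and 0.632 at E12.5). Wnt5a, a ligand of planar polarity and the most abundant, had 43.3, 39.9, 43.2 and 41.4 RPKM. With age in controls Wnt11, Wnt9a, Wnt4 and Wnt3 rose, by 0.52, 0.75, 0.61 and 0.45 on the log2 scale (limma adjusted p = 0.00384, 0.00831, 0.0108 and 0.0334). In mutants Wnt11 alone of the 10 was called with age, at 0.40 (limma adjusted p = 0.0137). Over all genes limma called 16.5% higher with age in controls and 14.5% in mutants.

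All 6 other WNT receptors and co-receptors were listed. Ptk7, a pseudokinase co-receptor of planar polarity, fell with age by 0.33 in controls and by 0.22 in mutants (limma adjusted p = 0.00126 and 0.00919), and its mean was 77.9 RPKM in the E11.5 controls and 61.9 in the E12.5 controls. Lrp5, Lrp6, Ror1, Ror2 and Ryk were called in no comparison. With age limma called 21.7% of all genes in controls and 19.7% in mutants, in either direction. Of the regulators of receptor turnover, which set how much Frizzled protein stays at the surface, 4 of 9 were listed. Lgr4, a receptor for R-spondins, rose with age by 0.34 in controls and 0.32 in mutants (limma adjusted p = 0.00519 and 0.00781), and the R-spondin gene Rspo3 rose by 0.49 in mutants (limma adjusted p = 0.00654). Rspo3 had 25.8 RPKM in the E12.5 controls and 31.3 in Sox9cKO, which was not called (limma adjusted p = 0.639).

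Among the 9 cytoplasmic transducers, all listed, Ctnnb1 (beta-catenin) fell with age by 0.40 in controls and by 0.32 in mutants (limma adjusted p = 0.0208 and 0.0434), and Csnk1a1 (casein kinase) fell by 0.15 in controls (limma adjusted p = 0.0412). Of 10 planar polarity genes 9 were listed, and Prickle1, whose protein works with Vangl proteins opposite to Frizzled in the cell, came nearest to a call in the mutants. Its mean was 27.3 RPKM in the E12.5 controls and 21.5 in Sox9cKO, which differ by -0.33 on the log2 scale (SE 0.058, limma adjusted p = 0.0517), and 22.8 and 20.5 RPKM at E11.5. With age Daam1 and Vangl1 rose in controls by 0.27 and 0.25 (limma adjusted p = 0.00300 and 0.00692) and in mutants by 0.30 and 0.17 (limma adjusted p = 0.00302 and 0.0315), and Prickle1 rose in controls by 0.25 (limma adjusted p = 0.0106). Of 10 nuclear factors and feedback targets 9 were listed. Axin2, a direct target of beta-catenin, had 26.9 and 26.4 RPKM at E11.5 and 29.4 and 27.7 at E12.5 (controls, then mutants) and was not called. Tcf7 fell with age by 0.46 in controls and by 0.37 in mutants (limma adjusted p = 0.00266 and 0.00795). Calls with age in these lists stand beside 21.7% of all genes in controls and 19.7% in mutants, in either direction.

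Markers of several cell types moved with the groups, and their part in the Fzd9 levels was not tested. In bulk samples, fewer cells of a type and less RNA per cell cannot be told apart. Of 18 cartilage marker symbols 13 were listed, and the unlisted Cnmd and Mia are other names of the listed Lect1 and Mia1. At E11.5 12 of the 13 were below 0 on the log2 scale (median -0.51, 3 called, against 0.0543% of all genes), with sums of 144 to 199 RPKM in controls and 89.4 to 112 in Sox9null. At E12.5 all 13 were below 0 (median -1.25, 4 called, against 0.194% of all genes), with sums of 288 to 383 and 147 to 208 RPKM. None of the 13 was near 0 in all groups, and Matn1 was at 0.0475 RPKM in Sox9null. With age in controls 11 of the 13 rose, against 16.5% of all genes. The 14 listed erythroid markers were all above 0 in the mutants of both ages (medians 0.34 and 0.54, 0 and 1 called). Their sums were 868 to 968 RPKM in controls and 900.2 to 1552 in Sox9null, then 693 to 737 and 933 to 1151 at E12.5. The 14 surface ectoderm markers were all above 0 in Sox9null (median 0.17), and 11 of them were below 0 in Sox9cKO (median -0.12), with none called. Of 8 listed skeletal muscle markers 6 rose with age in controls and 6 in mutants, against 16.5% and 14.5% of all genes. Pax3 fell in both, by 0.98 and 0.77 on the log2 scale (limma adjusted p = 0.0212 and 0.0474), and Myf5 was not called. The 8 had a median sum of 189 RPKM in the E12.5 controls and 153 in Sox9cKO. The 3 listed nerve and Schwann cell markers summed to 25.2 to 29.0 RPKM in the E11.5 controls, at most 24.5 in Sox9null, 39.9 to 42.3 in the E12.5 controls and 35.7 to 41.4 in Sox9cKO. Sox10, the defining Schwann cell gene of these, had means of 2.05, 0.722, 3.57 and 1.71 RPKM in the same order. Only its mean in the E12.5 controls reached 3 RPKM, so being higher there was a condition of its listing, and no test of it is given. Erbb3 had 10.7, 8.81, 20.1 and 14.6 RPKM and the nerve gene Tubb3 14.1, 13.5, 17.7 and 21.5, with neither called between mutants and controls. The 8 endothelial markers were above 0 in the mutants of both ages (medians 0.09 and 0.09, none called).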

How the data were processed

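RNA of 13 limb bud samples was sequenced. Per the labels, extraction used the RNeasy Mini Kit and library preparation followed Illumina's standard protocols. CASAVA 1.8 and the mm10 build were used, per the submitters' processing notes. The aligner, read counting, strand use and scaling between libraries: not given in the sources used here. Values are normalized RPKM, per the file headers, and the authors kept the 12880 genes whose mean reached 3 RPKM in any of the 4 groups. The authors' p-value per gene, adjusted over the 4 groups, is quoted from the deposited table and used in no test here. Columns were assigned to samples by their headers.

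The absolute depth is unknown. Low values of short genes multiplied by gene length lay within 0.15 of a whole multiple of a step for 77.8% to 90.5% of values, which gave the relative depths but not whole reads, so no count model was used. A short gene such as Fzd9 rests on fewer reads than a long gene at the same RPKM.

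Tests were made on log2(RPKM + 1) in limma 3.58.1 in R 4.3.3 (trend of the prior variance, robust), fitting the 4 group means on all 13 libraries together, two-sided, with Benjamini-Hochberg adjustment over all genes in each of 5 comparisons. Differences on this scale understate the change of low genes. The fit was tested on simulated data. The Frizzled genes, the gene lists and the tests were chosen with earlier results of these data known. Genes named were all Frizzled genes, the 10 most like Fzd9, each called gene of a WNT list or otherwise the 2 with the largest moderated statistic (not all are printed), Sox9 and Col2a1; Wnt5a, Ryk, Matn1, Sox10, Erbb3 and Tubb3 were added after their values were seen. Coordinates are from GENCODE M21 (GRCm38) and promoter windows from RefSeq. Alternatives were another pseudocount, a filter, quantile normalization, no trend, a replicate block, a sex term, a library set term, each age alone and each library left out.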

Additional observations from a re-analysis of the deposited data

How the results depend on the processing

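The count of Frizzled genes called at E12.5, between the ages and for the difference of effects was the same under each alternative run. At E12.5 the called gene was Fzd9, which was chosen by that difference. Between the ages Fzd9 was also counted, though it was listed only through the E12.5 groups. The steady counts are therefore no separate evidence for Fzd9. Fzd8 kept its calls between the ages under each alternative, and Fzd6 kept its call in controls. At E11.5 the count was 1 (Fzd9) and fell to 0 in the fit on that age alone, where limma called 0 genes in all, and with the replicate block. It was also 0 without control 2, control 3, Sox9null 1, Sox9null 2 or Sox9null 3, so 0 to 1 over the libraries left out. The Fzd9 difference at E11.5 ran from -0.94 to -1.14 over those libraries. The replicate numbers do not pair the samples by any label, and same-numbered deviations correlated between -0.435 and 0.635. With the replicate block the called genes were 14 at E12.5 (12 shared with the 25) and 1 for the difference of effects; Sox9null 4, alone in its number, adds nothing to that fit. Other counts that moved were, at E11.5 (7 called), 41 with the library set term. At E12.5 (25 called) they were 57 with quantile normalization and 105 with the library set term. For the difference of effects (4 called) they were 2 with pseudocount 0.25 and 2 with the filter of 5 RPKM. With 1 library left out the counts ran from 2 to 8 at E11.5 (2 without control 3 or Sox9null 3), from 9 (without E12.5 control 1) to 47 (without E12.5 control 2) at E12.5, from 1 to 11 (without Sox9cKO 1) for the difference of effects, from 1381 (without E12.5 control 1) to 3374 in controls and from 708 (without Sox9cKO 2) to 2976 in mutants. Counts past 1.5 times apart were also 3 at E11.5 without Sox9null 1 or 2; 38, 11, 40, 15 and 10 at E12.5 without E11.5 control 1, E12.5 control 3 and Sox9cKO 1, 2 and 3; 1780 and 1647 in controls without E11.5 control 1 and E12.5 control 3; and 976 in mutants without Sox9cKO 1. The cause was not tested.

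Of 800 member differences under alternatives 747 kept direction and side of the threshold, 7 lost a call (each Fzd9 at E11.5) and 46 turned direction, all of them uncalled and small. The turned values were, with pseudocount 0.25, 0.059 for the Fzd9 difference of effects. With quantile normalization they were -0.029 (Fzd2) and -0.010 (Fzd10) at E12.5, -0.043 (Fzd2) for the difference of effects, 0.039 (Fzd2) in controls and -0.009 (Fzd7) in mutants. With the replicate block they were -0.005 (Fzd10) at E11.5, -0.026 (Fzd2) and 0.016 (Fzd10) for the difference of effects and -0.026 (Fzd7) in mutants. With the sex term they were -0.028 (Fzd3) at E12.5, 0.003 (Fzd1) for the difference of effects, 0.053 (Fzd3) in controls and -0.003 (Fzd7) in mutants. With the library set term Fzd2 at E11.5 was -0.003. With 1 library left out the ranges were, at E11.5, -0.033 to 0.033 (Fzd2), -0.094 to 0.063 (Fzd3), -0.005 to 0.066 (Fzd7), -0.100 to 0.000 (Fzd8) and -0.005 to 0.053 (Fzd10). At E12.5 they were -0.025 to 0.021 (Fzd2) and -0.012 to 0.049 (Fzd10). For the difference of effects they were -0.045 to 0.003 (Fzd1), -0.029 to 0.037 (Fzd2), -0.032 to 0.125 (Fzd3) and -0.042 to 0.023 (Fzd10). Between the ages they were -0.051 to 0.084 (Fzd3, controls) and -0.026 to 0.035 (Fzd7, mutants). The unknown depth limits what can be said of Fzd9 in Sox9null, where it is lowest.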
